A study of Homo sapiens with 9 samples.

Results

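The 35 genes described here encode lysosomal enzymes and membrane proteins, and they were taken by symbol from the 19930 genes of an RNA-seq table. All 35 were found, and 32 of them passed an expression limit (1 FPKM on average across the 9 libraries) and were tested among 12884 genes. FPKM are mapped fragments scaled by the length of the transcript and the size of the library, so levels can be compared between genes. The libraries come from cells labelled MDA-MB-453, an established human breast cancer cell line. There were 3 groups of 3 libraries, named X453_NC, X453_1 and X453_2. X453_NC is the control, and X453_1 and X453_2 are both labelled as knockdowns of the long noncoding RNA LINC00673. Per the study's methods, silencing was done with small interfering RNAs delivered with Lipofectamine, and per the labels cells were harvested at 48 h after transfection. The labels number the knockdown groups 1 and 2 but name no siRNA for either, and the control is named only as control. The level of LINC00673 itself was not analysed here. No label says that the 3 libraries of a group came from separate cultures, so every p-value below measures the spread between these libraries, which may be technical.

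Low FPKM values move in steps of 1 fragment, and the size of these steps gave depths of 24.0 to 28.0 M fragments (M stands for mega), with the control libraries the deepest group (26.1 to 28.0 M). Libraries of 1 group correlated at r = 0.994 to 0.996 over the tested genes, and knockdown with control libraries at r = 0.955 to 0.973. The epithelial markers KRT8, KRT18 and EPCAM were at 287 FPKM or more in every library, and ERBB2 was at 11.8 to 17.8 FPKM. Among the luminal markers chosen for this line, FOXA1 was near 0 (at most 0.04 FPKM) and GATA3 was at 0.41 to 0.88 FPKM in every library. The libraries are therefore called by their labels, as libraries labelled MDA-MB-453. Of 13 markers of leukocytes, fibroblasts and endothelium, 10 were under 1 FPKM in every library, PTPRC, CD14 and AIF1 among them. The other 3, LYZ, LUM and COL1A1, were at 6.66 to 8.74, 5.33 to 7.11 and 3.49 to 7.08 FPKM. The summed level of the 13 markers was 17.06 to 18.24 FPKM in X453_NC, 22.23 to 22.91 in X453_1 and 21.2 to 22.51 in X453_2, so it moved with the groups, and its part in the results below was not tested.

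Lysosomes are acid compartments in which proteins, glycans and lipids are broken down by a large set of hydrolases. Most of these enzymes are tagged with mannose 6-phosphate in the Golgi apparatus and carried to the lysosome by receptors, while membrane glycoproteins line the compartment and channels and transporters move ions and breakdown products across it. The transcription factors TFEB, TFE3 and MITF bind E-box motifs in the promoters of many lysosomal genes and can raise their transcription together. Inherited loss of single enzymes causes storage diseases, and several cathepsins and the tetraspanin CD63 are released by tumour cells.

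In X453_NC the members spanned the whole range of expression. CD63, a tetraspanin of late endosomes, lysosomes and exosomes, was the most abundant at 303 ± 13.5 FPKM (SD, n = 3), which is 20.7% of the summed FPKM of the 35 members. PSAP, the precursor of the saposins that present sphingolipids to their hydrolases, followed at 205 ± 3.24 FPKM. The cysteine protease CTSB (cathepsin B) was at 144 ± 0.902 FPKM and the aspartic protease CTSD (cathepsin D) at 104 ± 4.10 FPKM. These 4 were the only members above 100 FPKM, and the lowest of them, CTSD, lay above 95.3% of the tested genes. At the other end, 11 members were under 10 FPKM, and 3 of them were not tested. CTSF was listed at 0, 0.02 and 0.02 FPKM in X453_NC and at 0 in the other 6 libraries. A 0 in this table need not mean that the RNA was absent, since ATP6AP1, a subunit of the proton pump that cells in general use, was also listed at 0 in 8 of 9 libraries and at 1.49 FPKM in the other. CTSS (cathepsin S), a protease of antigen-presenting cells, was at 0.18 to 0.36 FPKM in all libraries. ARSB, which removes sulfate from dermatan sulfate, was at 0.70, 0.70 and 0.71 FPKM in X453_NC, 1.11, 1.33 and 1.03 in X453_1 and 0.96, 1.09 and 0.90 in X453_2, so both knockdown groups lay above the control, but the mean over all libraries was under 1 FPKM.

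**Figure D1:**
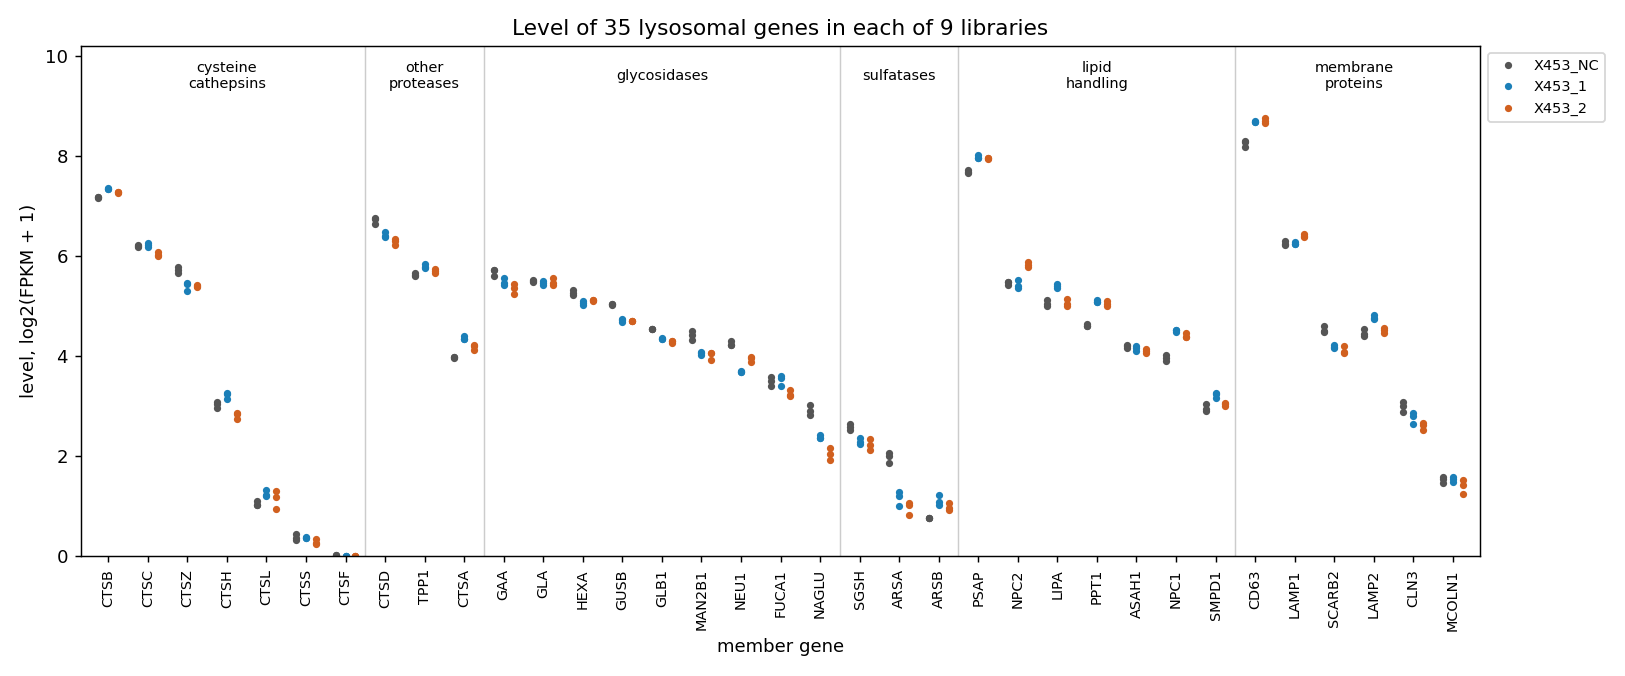
Level of each of the 35 lysosomal genes in 9 libraries, as log2(FPKM + 1), grouped by role and ordered by the control level. Each point is 1 library, grey for X453_NC, blue for X453_1 and orange for X453_2. CD63, PSAP and CTSB stand at the top, CTSF and CTSS near 0, and the 3 libraries of a group lie close together for most genes.

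The summed level of the 35 members was 1468 ± 19.9 FPKM in X453_NC, 1612 ± 20.0 in X453_1 and 1579 ± 18.3 in X453_2 (SD, n = 3 each). As a share of all FPKM in a library this was 0.280%, 0.327% and 0.307%, and the lowest knockdown library was above the highest control library. The sum followed its most abundant genes. CD63 and PSAP together were 153.5 FPKM higher in X453_1 and 155.8 FPKM higher in X453_2 than in the control. Without these 2 genes the sum was 959.1 FPKM in X453_NC, 949.7 in X453_1 and 914.2 in X453_2.

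The promoters of 26 members were matched by symbol to RefSeq promoter sequences (GRCh38.p14, 250 bases before to 50 after each start), and they are shown because TFEB-family factors bind the E-box CACGTG. The search was for CACGTG on both strands, which read alike, and for the longer form with T before it or A after it. The longer form, which is a subset of the first, was present in 9 of 26 members (34.6%), against 4.49% of all 27305 genes in the promoter table. Among genes tested for expression it was in 7 of 24 members (29.2%), against 7.32% of 8967 genes. TCACGTGA, which has both flanking bases, was found in 5 of the 26. The 9 members were LAMP1, CTSA, CTSD, CTSF, GAA, NEU1, MCOLN1, CLN3 and ARSB. LAMP1 held 6 such boxes, more than any other member, and the window shows 4 of them. The windows below are those of LAMP1, GAA, MCOLN1, CTSA, CTSD and NEU1, read 5′ to 3′ on the strand of the gene and ending before the start, with CACGTG in capitals. They were chosen for the motif after the values were known, and a match is a run of letters, not a measured binding site.
LAMP1, chr13:113297035-113297114, plus strand: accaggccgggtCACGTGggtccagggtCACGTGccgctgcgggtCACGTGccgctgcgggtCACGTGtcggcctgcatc
GAA, chr17:80101493-80101567, plus strand: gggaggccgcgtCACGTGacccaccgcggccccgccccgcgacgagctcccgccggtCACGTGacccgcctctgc
MCOLN1, chr19:7522571-7522623, plus strand: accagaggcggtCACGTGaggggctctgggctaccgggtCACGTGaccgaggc
CTSA, chr20:45891281-45891327, plus strand: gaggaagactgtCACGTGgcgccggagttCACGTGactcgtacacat
CTSD, chr11:1763957-1763986, minus strand: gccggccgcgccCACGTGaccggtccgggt
NEU1, chr6:31862930-31862959, minus strand: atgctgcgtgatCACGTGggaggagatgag

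The 7 tested members with such a box did not all take the same direction. In X453_1, CTSA rose and NEU1 fell, with log2 fold changes of 0.40 and -0.55, while LAMP1 and MCOLN1 were at 0.00 and 0.01. CTSD, CLN3 and GAA were at -0.29, -0.23 and -0.20. In X453_2, CTSD and CLN3 fell (-0.42 and -0.39), and GAA, NEU1 and MCOLN1 were at -0.34, -0.30 and -0.14. CTSA and LAMP1 were at 0.21 and 0.16. CTSD, GAA, NEU1 and CLN3 were thus negative in both comparisons and CTSA positive in both. After correction for GC content, GAA was positive in both and CTSD in X453_1. Of the 5 members called in both comparisons with the control (NPC1, PPT1, CD63, NAGLU and ARSA), the windows of NPC1 and PPT1 held no CACGTG. CD63 had 1, without the T or A beside it, and NAGLU and ARSA were not in the promoter table.

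The first question was which lysosomal genes changed when LINC00673 was silenced, and a gene was called where its fold change was at least 1.3 and its P, adjusted by Benjamini-Hochberg over all tested genes, did not exceed 0.05 (limma on log2(FPKM + 1), 3 libraries against 3). NPC1, PPT1 and CD63 rose in both knockdown groups, and NAGLU and ARSA fell in both, although the calls of NAGLU and ARSA in X453_1 did not hold after correction for GC content. Beside these, CTSA rose and NEU1 fell in X453_1, and CTSD, MAN2B1, SCARB2 and CLN3 fell in X453_2, where these 4 calls did not hold after scaling of the libraries or correction for GC content. No member was called in opposite directions, and the other 21 tested members were called in neither comparison. Of all 12884 tested genes, 982 were higher in both comparisons, 1741 were lower in both and 7823 were called in neither. Only 1 was called in opposite directions, so the lack of opposite calls is not particular to the members. Markers of cell types also moved by the same criteria. KRT18 was lower in both comparisons (-0.46 and -0.48), ERBB2 was lower in X453_2 (-0.45), and the fibroblast collagen COL1A1 was higher in both (0.44 and 0.62), while COL1A2, COL3A1 and DCN were at 0.12 FPKM or less in every library. The part of these shifts in the member changes was not tested. The comparisons share the control libraries, so a call in both is not independent evidence. These are levels of RNA in whole cultures, where fewer cells of a type and less RNA per cell cannot be told apart.

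In X453_1, 4 of 32 members were higher (background over all tested genes 11.0%) and 3 were lower (15.5%). In X453_2, 3 were higher (10.9%) and 6 lower (23.0%). These shares of members are near those of all genes. Over all tested genes the calls in X453_2 were 1406 higher and 2966 lower, and 1981 and 2224 after scaling of each library by the median ratio of its genes to their mean over the libraries. The same scaling gave 4 members higher and 2 lower. The median log2 fold change of the members was -0.02 in X453_1 and -0.14 in X453_2, beside 0.00 and -0.10 over all tested genes. With the adjusted P alone and no fold limit, 11 members were higher (32.1%) and 13 lower (32.3%) in X453_1, and 9 were higher (26.0%) and 16 lower (44.8%) in X453_2. Many member changes were therefore larger than the spread between libraries but smaller than 1.3-fold. By the shares beside these counts, this also held for many of all tested genes and is not particular to the members. The 3 knockdown libraries did not overlap the 3 control libraries for 25 members in X453_1 (all tested genes, 70.0%) and 26 in X453_2 (73.0%). For a single gene, an exact permutation test of 3 libraries against 3 cannot go below P = 0.1.

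**Figure D2:**
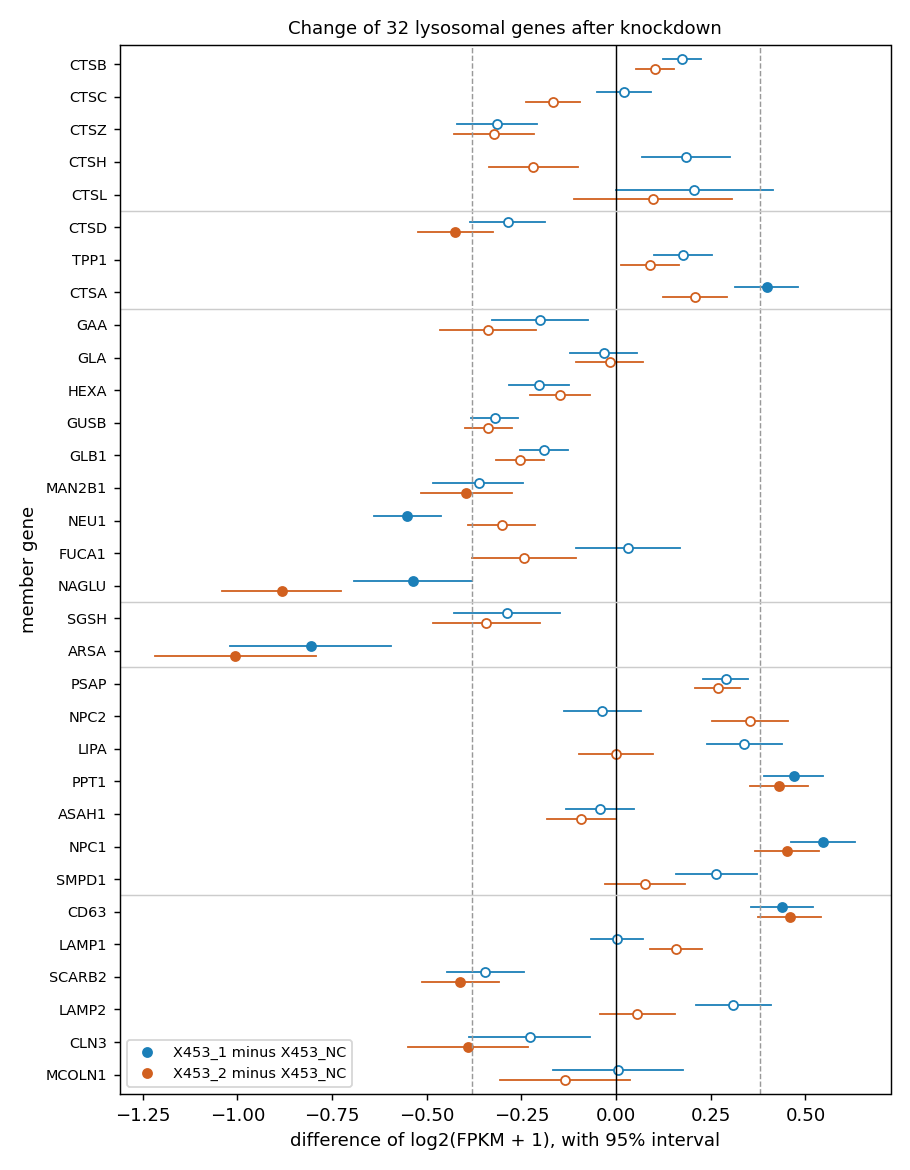
Difference of log2(FPKM + 1) from X453_NC for the 32 tested lysosomal genes, with 95% intervals from limma (blue X453_1, orange X453_2, filled where called). Dashed lines mark a 1.3-fold change (0.38). NPC1, PPT1 and CD63 lie to the right of the line in both comparisons, and NAGLU and ARSA to the left.

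Among the proteins that handle lysosomal lipids, the gene that rose most was NPC1, the membrane protein that exports cholesterol from the lysosome (chr18:21111463-21166581 on GRCh37, as are all gene positions here). Its level was 14.0, 15.2 and 14.6 FPKM in the control libraries, 21.4, 21.9 and 22.1 in X453_1 and 21.0, 20.0 and 20.0 in X453_2. Every knockdown library was above every control library. The log2 fold change was 0.55 ± 0.04 (SE, adjusted P = 1.6e-06) in X453_1 and 0.45 ± 0.04 (adjusted P = 3.5e-06) in X453_2. PPT1, the thioesterase that strips fatty acids from palmitoylated proteins (chr1:40538382-40563142), was at 23.5, 24.0 and 23.4 FPKM in X453_NC, 32.9, 33.7 and 32.7 in X453_1 and 33.5, 32.1 and 31.0 in X453_2. The groups did not overlap, and the log2 fold changes were 0.47 ± 0.03 (adjusted P = 2.2e-06) and 0.43 ± 0.03 (adjusted P = 2.5e-06).

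NPC2, the soluble protein that hands cholesterol to NPC1 (chr14:74946643-74960084), differed between the knockdown groups. It was at 44.0, 43.8 and 42.2 FPKM in X453_NC, 40.3, 45.1 and 41.3 in X453_1 and 57.9, 53.7 and 55.2 in X453_2. X453_1 overlapped the control, while X453_2 was above both other groups. Its log2 fold change from the control was -0.04 in X453_1 and 0.35 in X453_2, the latter just under the fold limit, and under scaling of the libraries it was called in X453_2 (0.46). PSAP was at 209, 202 and 205 FPKM in X453_NC, 247, 258 and 249 in X453_1 and 249, 244 and 249 in X453_2. All 6 knockdown libraries were above the control libraries, with a log2 fold change of 0.29 (95% interval 0.23 to 0.35) and 0.27 (0.21 to 0.33), so PSAP passed the adjusted P but not the fold limit. LIPA, the acid lipase that frees cholesterol from its esters, was at 0.34 in X453_1 and 0.00 in X453_2. SMPD1, acid sphingomyelinase, was at 0.27 and 0.08, and after correction for GC content it was called in X453_1 (0.46). ASAH1, acid ceramidase, had intervals of -0.13 to 0.05 and -0.18 to 0.00, and a change of 1.3-fold lies outside both. Of these 7 lipid-handling genes, 2 rose and none fell in each comparison, counts that differ by fewer than 2 genes from the shares of all tested genes (11.0% and 10.9% higher, 15.5% and 23.0% lower).

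The 6 membrane proteins split. CD63 (chr12:56119227-56123457) was at 313, 309 and 288 FPKM in X453_NC, 408, 412 and 414 in X453_1 and 413, 404 and 434 in X453_2. Its knockdown libraries all lay above the control, by 0.44 ± 0.04 (adjusted P = 5.3e-06) and 0.46 ± 0.04 (adjusted P = 2.6e-06) on the log2 scale. LAMP1 and LAMP2, the abundant glycoproteins that coat the inner face of the lysosomal membrane, did not reach the fold limit. LAMP1 was at 77.4, 73.2 and 74.8 FPKM in X453_NC, 74.6, 76.8 and 74.3 in X453_1 and 85.9, 83.1 and 82.8 in X453_2. X453_1 overlapped the control (interval of the log2 fold change -0.07 to 0.07) and X453_2 lay above it (0.09 to 0.23). LAMP2 showed the other order, with 20.1, 22.3 and 20.9 FPKM in X453_NC, 25.8, 26.0 and 27.3 in X453_1 and 22.6, 22.0 and 21.2 in X453_2. Here X453_1 was above the control (0.21 to 0.41) and X453_2 overlapped it (-0.04 to 0.16).

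SCARB2 (LIMP-2), the receptor that carries glucocerebrosidase to the lysosome, was at 22.1 ± 0.996 FPKM in X453_NC, 17.2 ± 0.408 in X453_1 and 16.4 ± 0.816 in X453_2 (SD, n = 3). It was called lower in X453_2, at a log2 fold change of -0.41 (adjusted P = 2.2e-05), and was at -0.35 in X453_1. CLN3, the membrane protein lost in juvenile Batten disease, was at 6.99 ± 0.525, 5.83 ± 0.530 and 5.09 ± 0.312 FPKM, with -0.39 in X453_2 (adjusted P = 0.00067). MCOLN1, the calcium channel TRPML1, was at 1.90 ± 0.125, 1.91 ± 0.105 and 1.65 ± 0.244 FPKM, with log2 fold changes of 0.01 and -0.14. The calls of SCARB2 and CLN3 in X453_2 did not hold under the scaling described above, where the values were -0.31 and -0.30.

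Of the 9 glycosidases, 2 fell in each comparison and none rose, which is near the shares of all tested genes (15.5% and 23.0% lower, 11.0% and 10.9% higher). NAGLU, which removes N-acetylglucosamine from heparan sulfate (chr17:40687951-40696467), was at 7.18, 6.11 and 6.53 FPKM in X453_NC, 4.37, 4.18 and 4.18 in X453_1 and 2.79, 3.13 and 3.46 in X453_2. The 3 groups did not overlap, and X453_2 was the lowest. Its log2 fold change was -0.54 ± 0.07 (adjusted P = 9.3e-05) in X453_1, where it was not called after correction for GC content (-0.19), and -0.88 ± 0.07 (adjusted P = 2.2e-06) in X453_2. NEU1, the lysosomal sialidase, was at 18.8, 17.7 and 17.6 FPKM in X453_NC, 12.1, 11.9 and 11.9 in X453_1 and 13.8, 14.6 and 14.9 in X453_2. The groups did not overlap, and X453_1 was the lowest. It fell in X453_1 (-0.55, adjusted P = 1.8e-06) and was at -0.30 in X453_2. MAN2B1, lysosomal alpha-mannosidase, was at -0.36 in X453_1 and was called lower in X453_2, at -0.40 (adjusted P = 8.8e-05), a call that did not hold under the scaling (-0.29).

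The other 6 glycosidases were GLA, GLB1, GAA, GUSB, HEXA and FUCA1, which act on alpha-galactosides, beta-galactosides, glycogen, glucuronides, gangliosides and fucosides. Their log2 fold changes lay between -0.32 (GUSB) and 0.03 (FUCA1) in X453_1 and between -0.34 (GAA) and -0.02 (GLA) in X453_2. The libraries of GUSB lay close together within each group, at 31.8 ± 0.183 FPKM in X453_NC, 25.3 ± 0.439 in X453_1 and 25.0 ± 0.0723 in X453_2. The sign was negative for 8 of 9 glycosidases in X453_1 and for 9 of 9 in X453_2, with a median of -0.20 and -0.30, beside 0.00 and -0.10 over all tested genes. After scaling by median ratios or correction for GC content, 8 of 9 were negative in X453_2, as GLA and GAA respectively took a positive sign.

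NEU1 acts in a complex with the carboxypeptidase CTSA (protective protein/cathepsin A), which holds NEU1 and the galactosidase GLB1 stable. In X453_1 the levels of these partners moved apart: CTSA was at 14.8, 14.8 and 14.5 FPKM in X453_NC and 19.4, 19.4 and 20.3 in X453_1, a log2 fold change of 0.40 ± 0.04 (adjusted P = 1e-05). In X453_2 it was at 17.5, 16.4 and 17.6 FPKM (0.21). GLB1 was at -0.19 and -0.25. The call of CTSA is close to the fold limit and did not hold without library r2 of X453_1, where the value was 0.38.

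Of the 3 sulfatases, ARSA had the most negative log2 fold change of any member in both comparisons. After correction for GC content, NEU1 (-0.52) and SCARB2 (-0.42) lay below ARSA (-0.33) in X453_1, where ARSA was then not called, and NAGLU and ARSA were both at -0.52 in X453_2. ARSA, arylsulfatase A, removes sulfate from sulfatide (chr22:51061182-51066601). It was at 3.03, 2.64 and 3.16 FPKM in X453_NC, 1.44, 1.02 and 1.32 in X453_1 and 0.77, 1.10 and 1.03 in X453_2. The groups did not overlap with the control, and the level in X453_2 was 0.328 of the control level. The log2 fold change on the log2(FPKM + 1) scale, which understates changes at low levels, was -0.81 ± 0.10 (adjusted P = 4.7e-05) and -1.01 ± 0.10 (adjusted P = 7.9e-06). These levels rest on an estimated 81.8 to 368 fragments per library, against 9040 to 12100 for CD63. SGSH, the sulfamidase of heparan sulfate, was at 4.99 ± 0.230 FPKM in X453_NC, 3.91 ± 0.187 in X453_1 and 3.73 ± 0.356 in X453_2, with log2 fold changes of -0.29 and -0.34. It was called in neither comparison. Transcripts of SGSH were at 62.2% GC, and after correction for GC content the values were -0.01 and -0.04.

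No cysteine cathepsin was called against the control. CTSB was at 144, 143 and 144 FPKM in X453_NC, 161, 162 and 164 in X453_1 and 154, 156 and 153 in X453_2. Its libraries did not overlap between groups, and the log2 fold changes of 0.17 (0.12 to 0.22) and 0.10 (0.05 to 0.15) were under the fold limit. CTSC, the dipeptidyl peptidase that activates granule proteases, was at 0.02 and -0.17, and CTSZ (cathepsin X), a carboxypeptidase, at -0.32 and -0.32. CTSL (cathepsin L) was at 1.07 ± 0.0608 FPKM in X453_NC, 1.39 ± 0.104 in X453_1 and 1.23 ± 0.284 in X453_2.

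CTSH (cathepsin H, an aminopeptidase, chr15:79214092-79237440) lay on opposite sides of the control in the knockdown groups. It was at 6.86, 7.30 and 7.45 FPKM in X453_NC, 8.53, 7.79 and 8.67 in X453_1 and 5.73, 6.26 and 6.16 in X453_2. X453_1 lay above the control and X453_2 below it, at 0.19 and -0.22, both under the fold limit.

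Among the other proteases, CTSD was at 107, 99.2 and 105 FPKM in X453_NC, 83.9, 88.7 and 82.4 in X453_1 and 73.4, 77.6 and 80.5 in X453_2. All knockdown libraries were below the control libraries. The fold limit was passed in X453_2, at -0.42 ± 0.04 (adjusted P = 1.5e-05), and not in X453_1, at -0.29 ± 0.04. Under the scaling, the value in X453_2 was -0.32 and CTSD was not called. TPP1, the tripeptidyl peptidase lost in late infantile Batten disease, was at 0.18 and 0.09.

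**Figure D3:**
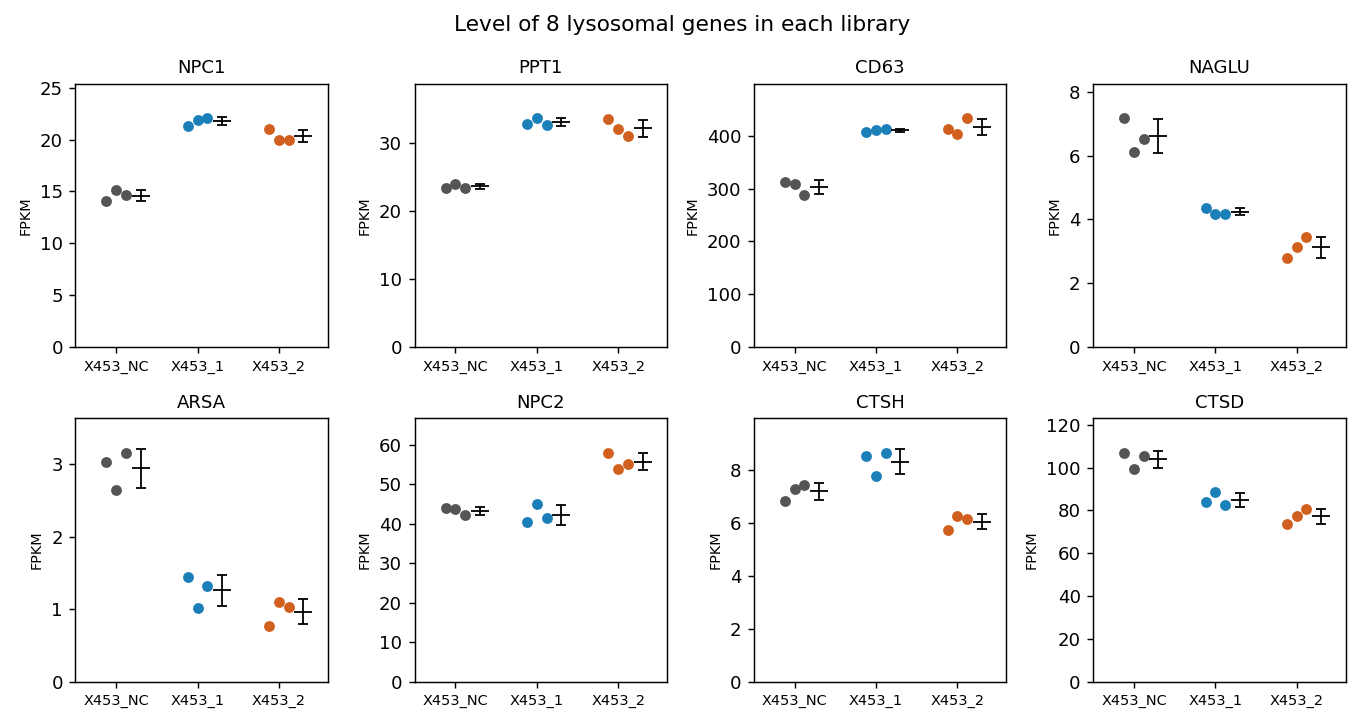
FPKM of 8 lysosomal genes in each library, with points for single libraries and bars for the mean ± SD of 3 libraries per group. NPC1, PPT1 and CD63 are higher in both knockdown groups and NAGLU, ARSA and CTSD lower (for CTSD the sign in X453_1 turned after correction for GC content), while NPC2 and CTSH separate X453_2 from X453_1.

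The second question was whether the 2 knockdown groups differed from each other. In the direct comparison, NPC2 was higher in X453_2 than in X453_1 by 0.39 ± 0.05 on the log2 scale (adjusted P = 0.00019), and CTSH was lower, at -0.40 ± 0.05 (adjusted P = 0.00034). These were the only members called of 32, 1 in each direction, where 2.06% of all tested genes were higher and 5.32% lower. NAGLU and LIPA were lower in X453_2 by the adjusted P but not by the fold limit, at -0.35 and -0.34. For the 3 genes that rose in both knockdown groups, the interval of the difference was -0.18 to -0.01 for NPC1, -0.12 to 0.04 for PPT1 and -0.06 to 0.10 for CD63. For ARSA it was -0.41 to 0.01. Both calls rest on few libraries: without library r2 of X453_1 or library 1 of X453_2, NPC2 and CTSH were no longer called, and NPC2 also not without library 1 of X453_1. CTSH was also not called after scaling of the libraries or correction for GC content or length, and NPC2 not after correction for length.

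Several of the members called lower, though not SCARB2, had transcripts rich in G and C. Over the 32 tested members, the median GC content of GENCODE transcripts was 54.0%, against 50.6% over all tested genes, and 9 members were at or above 59.4%, the limit of the top 20% of genes by GC content. Genes in that top class had a median log2 fold change of -0.29 in X453_1 and -0.35 in X453_2, and genes of the bottom 20% of 0.09 and -0.06. Across the 32 members, Pearson's r between GC content and log2 fold change was -0.51 in X453_1 and -0.49 in X453_2, and across all tested genes it was -0.37 and -0.23. These are descriptions across genes, which are not independent replicates.

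ARSA, at 66.0% GC, had the highest GC content of the tested members, and NAGLU was at 63.5%. After correction of each library for its trend with GC content, ARSA was at -0.33 in X453_1 and -0.52 in X453_2, and NAGLU at -0.19 and -0.52. Both were then called in X453_2 and not in X453_1. CTSD went to 0.04 and -0.07 and GAA to 0.24 and 0.11, a positive sign for GAA in both. NPC1 (0.47 in each), PPT1 (0.39 and 0.46) and CD63 (0.43 and 0.51) were called with and without the correction, as was NEU1 in X453_1 (-0.52). SCARB2, at 44.0% GC, was at -0.42 in X453_1 and -0.38 in X453_2 after the correction, and was then called in X453_1 and not in X453_2.

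**Figure D4:**
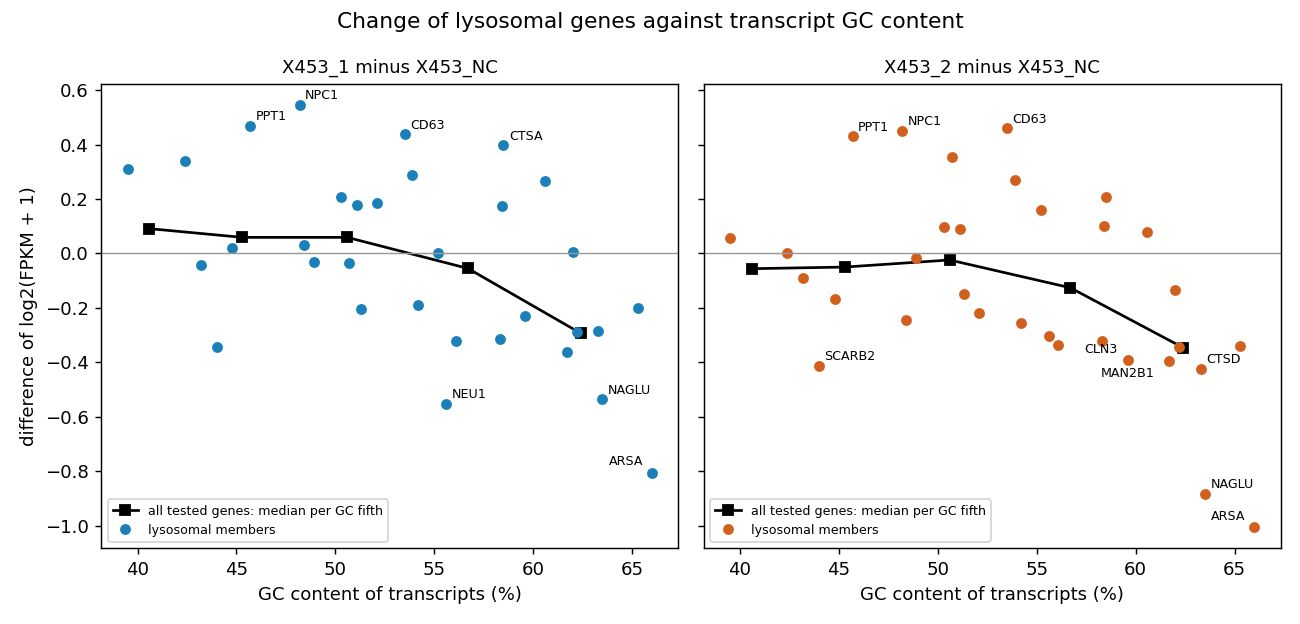
Difference of log2(FPKM + 1) from X453_NC against GC content of the transcripts (percent) for the 32 tested lysosomal genes (coloured points, with the called genes named). Black squares are the medians of all tested genes in 5 equal groups by GC content, from 40.6% to 62.4%. ARSA lies furthest right and lowest in both panels. NAGLU also lies at the right and low, with NEU1 (55.6% GC) slightly lower in X453_1. NPC1, PPT1 and CD63 lie above the squares.

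Other parts of the lysosome were described by lists of genes, whose single values are given without correction for GC content. Their counts and medians stand beside those of all tested genes, of which 11.0% were higher and 15.5% lower in X453_1 and 10.9% and 23.0% in X453_2, with medians of 0.00 and -0.10. Of 30 further hydrolases and cofactors that were tested, 3 rose and 9 fell in X453_1, and 1 rose and 11 fell in X453_2, with medians of -0.14 and -0.32. ACP2, lysosomal acid phosphatase, fell most in X453_2, from 8.38 ± 0.598 to 2.72 ± 0.293 FPKM, with -0.63 and -1.33. IDS, which acts in the breakdown of heparan and dermatan sulfate, rose (0.90 and 1.10).

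Of 20 further lysosomal membrane proteins, 3 rose and 2 fell in X453_1, and 2 rose and 5 fell in X453_2. TPCN1, a cation channel of endosomes and lysosomes, rose (0.81 and 0.73), and TMEM175, a potassium and proton channel, fell (-0.64 and -0.96). Transcripts of TMEM175 were at 62.2% GC, in the top class described above, and those of TPCN1 at 58.0%. The part of GC content in these values was not tested. The 16 tested subunits of the V-ATPase, the pump that acidifies the lysosome, had 3 genes higher in X453_1, 5 higher in X453_2 and none lower, with medians of 0.17 and 0.20. ATP6V0D1 (0.58 and 0.53) and ATP6V0B (0.42 and 0.51) rose in both. No V-ATPase subunit was called lower under scaling of the libraries or correction for GC content or length. Of 14 genes for mannose 6-phosphate tagging and sorting, only the receptor IGF2R was called, in X453_1 (0.49, and 0.22 in X453_2).

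TFEB was at 3.01 ± 0.160 FPKM in X453_NC, 2.87 ± 0.497 in X453_1 and 2.72 ± 0.135 in X453_2, and its log2 fold changes had intervals of -0.26 to 0.14 and -0.31 to 0.09. TFE3 was at 1.94 ± 0.688, 0.723 ± 0.0252 and 1.47 ± 0.280 FPKM, and it fell in X453_1 (-0.74, adjusted P = 0.002) and was at -0.23 in X453_2. In the direct comparison TFE3 was called higher in X453_2 than in X453_1 (0.515). Its levels were low, and its control libraries spread from 1.18 to 2.52 FPKM. Its transcripts were at 59.8% GC, just inside the top class, and the part of GC content was not tested. MITF was under the expression limit, at a mean of 0.11 FPKM in X453_NC, and was not tested. Of the 17 tested genes of the TFEB family and of mTORC1 at the lysosome, 4 rose and 1 fell in X453_1, and 3 rose and none fell in X453_2. RRAGA, the GTPase that brings mTORC1 to the lysosome, rose (0.58 and 0.76), as did the mTORC1 subunit RPTOR (0.40 and 0.51).

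Of 25 autophagy genes, 1 rose and 3 fell in X453_1, and 1 rose and 6 fell in X453_2. MAP1LC3A, an LC3 protein of the autophagosome, fell (-0.74 and -0.68), as did the autophagy receptor CALCOCO2 (-0.66 and -0.66). MAP1LC3A was low, at 1.07 to 4.29 FPKM, and its transcripts were at 63.6% GC, in the top class, against 47.1% for CALCOCO2. Of 15 genes for tethering and fusion of late endosomes and lysosomes, RAB7A, the GTPase that marks late endosomes, rose in both (0.47 and 0.40) and its effector RILP fell in both (-0.44 and -0.48). Transcripts of RILP were at 64.9% GC, in the top class, and those of RAB7A at 48.5%. A further gene of that list fell in X453_2. Of 3 tested cystatins, which inhibit cysteine cathepsins, only CST7 was called, in X453_2 (-0.43).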

How the data were processed

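RNA sequencing on the BGISEQ-500 platform was deposited as 1 table with 1 line per gene, of 19934 lines. Of these, 4 held no values and were left out. The values used are FPKM per gene and library, which the authors computed from mapped fragments and rounded to 2 decimals. Per the labels, the processing named Bowtie2 (version 2) and GRCh37.p13, and the counting tool, its annotation and its use of strand are not given in the sources used here. The authors' 9 columns of comparisons between groups (ratios, p-values and q-values) were not used.

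Genes that averaged 1 FPKM or more were fitted on log2(FPKM + 1) with limma 3.58.1 in R 4.3.3 (lmFit, then eBayes with a mean-variance trend), with condition as the only term over all 9 libraries. Genes were called at the study's fold limit of 1.3 and, since its RNA-seq methods name no test for the P criterion of 0.05 (Student's t-tests are named for the study's comparisons in general), at P values adjusted by Benjamini-Hochberg of 0.05 or less. The groups came from the labels. In a simulation of the X453_1 comparison with 12884 genes, 200 of them changed, the criteria found 100% of changes of 1 and 96% of changes of 0.6 on the log2 scale, and 3 unchanged genes were called. The simulated noise was normal and independent, the changed genes were not among the lowest, and no trend with GC content was put in. Changes near the fold limit, where many members lie, were not simulated. The run checks the code, and its rates do not describe the calls reported here. The depth was estimated from the steps of low FPKM values in each library (157 to 191 genes), with 100 bases taken off each length, and no count model was fitted. Precision therefore rests on the spread between libraries.

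GC content was the mean over protein-coding GENCODE v29 transcripts of a gene, with 11190 tested genes matched. Promoters came from RefSeq (GRCh38.p14), and no positions were converted between builds. Tables and figures were made in Python 3.11.15 (matplotlib 3.10.9, pandas 2.3.3, numpy 2.4.6). Values in every library are given for members called in both comparisons or between the knockdown groups, for ARSB, CTSA and NEU1 (added after their values were seen), and for LAMP1, LAMP2, CTSD, CTSB, PSAP and CD63. From each other list the 2 genes with the largest mean change among those called in both comparisons are named. The exceptions are TFEB, TFE3 and MITF, named whatever their values, and IGF2R and CST7, the only called genes of their lists, which were added after their values were seen. The members and lists were chosen with earlier results of these data known. The alternatives were another added value, other expression filters and fold limits, an unadjusted P, fewer libraries in the fit, a replicate block, no variance trend, scaling, corrections for GC content and length, and each library left out in turn.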

Additional observations from a re-analysis of the deposited data

Results flagged for a closer look

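The direct comparison of the knockdown groups singled out a pair of members whose response to knockdown differed between X453_1 and X453_2. NPC2 was higher in X453_2 than in X453_1 by 0.39 on the log2 scale (limma, adjusted P = 0.00019), with 55.6 ± 2.14 against 42.2 ± 2.50 FPKM (SD, n = 3). CTSH was lower in X453_2, with a difference of -0.40 (limma, adjusted P = 0.00034) and 6.05 ± 0.282 against 8.33 ± 0.473 FPKM. All 3 libraries of X453_2 lay on the same side of all 3 libraries of X453_1 for both genes. The genes were picked by this same comparison, so the separation is not further evidence. It was also seen for 16 of the 32 tested members, and its share over all tested genes was not computed. As given above, both calls were lost when certain single libraries were left out and after correction for length. Groups of 3 libraries are too small to look for single outlying libraries.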

How the results depend on the processing

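NPC1, PPT1 and CD63 were called higher in both comparisons with the control under each alternative run except a fold limit of 2. Over the log2 fold changes of called members, 274 alternative values stayed called in the same direction, 46 kept the direction but lost the call, and none changed sign. Other filters, fold limits, an unadjusted P, the replicate block, no variance trend and a fit of only the compared libraries leave the fold change as it is. Its sign could not change in those runs, so this tally does not measure robustness. Without a fold limit, 11 members were higher and 13 lower in X453_1, 9 and 16 in X453_2, and 3 and 10 in X453_2 against X453_1. Of all 12884 tested genes, 4133 were then higher and 4163 lower in X453_1, and 3349 and 5772 in X453_2. In X453_2 against X453_1, 1313 and 4362 were. With a fold limit of 2, the member counts were 0 and 0, 0 and 1, and 0 and 0. The counts of all tested genes were 103 and 260, 213 and 390, and 25 and 11. With a mean of at least 5 FPKM as the filter, ARSA and NAGLU were not tested and 1 member was lower in X453_1. The 6 members lower in X453_2 became 2 under median-ratio scaling, 2 after the GC correction and 2 after the length correction, and in each case CTSD, MAN2B1, SCARB2 and CLN3 lost the call. Between the knockdown groups, 2 members were lower with 0.1 FPKM added, 0 under scaling, 0 after the GC correction and 0 after the length correction, and 0 were higher after the length correction. Members not called otherwise gained a call in X453_1 after the GC correction (SMPD1 and SCARB2) or the length correction (LIPA), and in X453_2 under scaling (NPC2) or the length correction (PSAP). With 0.1 FPKM added, calls as lower were gained by MAN2B1 in X453_1, SGSH in X453_2 and NAGLU between the knockdown groups. Without control library r1, MAN2B1 gained a call as lower in X453_1. GAA did so in X453_2 without its library r1. Without library r2 of X453_2, SGSH gained one there and NAGLU between the knockdown groups. The cause was not tested.

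Leaving out 1 library at a time gave 3 to 4 members higher and 3 to 4 lower in X453_1, 3 to 3 higher and 4 to 7 lower in X453_2, and 0 to 1 higher and 0 to 2 lower between the knockdown groups. The calls lost in X453_2 were CLN3 (-0.35) and MAN2B1 (-0.35) without its library 1, CLN3 (-0.35) without control library 1, SCARB2 (-0.38) without control library r1 and MAN2B1 (-0.35) without control library r2. The fit with the replicate label as a block (replicate block) changed no member's call, with 4 higher and 3 lower in X453_1, 3 and 6 in X453_2, and 1 and 1 between the knockdown groups. Libraries with the same label did not deviate together (r of their deviations from group means -0.24 to 0.10), so the labels are not taken as pairs. ARSA, CTSL and MCOLN1 are limited by low levels, and CTSF, CTSS and ARSB were listed under the expression limit and not tested.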
